A study of Mus musculus with 6 samples.

Results

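The machinery that writes and erases DNA methylation was followed in 6 whole mouse embryos through 9 genes, Dnmt1, Dnmt3a, Dnmt3b, Dnmt3l, Uhrf1, Hells, Tet1, Tet2 and Tet3. They were taken by symbol from the gene count tables, which hold 23366 genes, and all 9 were present. The 3 control embryos were H3f3a fl/+ and H3f3b fl/+, and the 3 knockout embryos were H3f3a fl/- and H3f3b fl/-. These genes both encode histone H3.3, the H3 variant that is placed in chromatin outside DNA replication. Sox2-Cre, which drives recombination in the epiblast and its descendants, was present in all 6 embryos, and all were Trp53-/-, so every value was measured without p53. All embryos were at E10.5 on a mixed C57BL/6, CD1 and 129 background. Because the controls also carried Cre and floxed alleles, they are not embryos with intact H3.3 genes, and tissues outside the epiblast lineage are not deleted by this Cre.

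Cytosine methylation at CpG sites is copied after replication by Dnmt1, which Uhrf1 brings to hemimethylated DNA, while Hells is a remodelling enzyme that opens nucleosomal DNA to methylation, above all in repeats. Dnmt3a and Dnmt3b place new methylation, and Dnmt3l is their catalytically inactive partner in germ cells and early embryos. Tet1, Tet2 and Tet3 oxidise 5-methylcytosine, which leads to its loss by dilution or by base excision. In the postimplantation embryo this system keeps retroviral repeats and germline genes shut, and the expression of imprinted genes by parental allele depends on it.

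To show what sets the members apart in sequence, the RefSeq windows around their start sites (300 bases, of which 250 lie before the start, GRCm38.p6) were searched on both strands for the E2F-type motif in the forms TTTCCCGC, TTTCGCGC, TTTGCCGC and TTTGGCGC. E2F factors drive genes of the G1 to S transition. All 9 members had at least 1 of the 16 windows found for them. The motif was present in 3 members, Dnmt1, Uhrf1 and Hells, which are the 3 that act at or around replication, and in 2.6% of all 27025 genes with a window. Of the S phase genes on a fixed list of 20, 16 had a window and 7 of these held the motif, among them Mcm3, Mcm5, Cdc6 and Cdt1. It was also present in 2 of 7 maintenance partners, 2 of 14 imprinted genes, 2 of 18 germline genes and 1 of 7 germ cell and pluripotency markers with a window, and in none of the other lists. The motif was chosen after the sequences had been seen, so its share among the members is not a test. Every form contains a CpG, and the matching windows held 33 or 34 CpG sites against a median of 7 over all windows. The 2.6% was not matched for CpG content or for the number of windows per gene. A match describes letters, not a bound site. The 4 matches are shown in 30 bases each, with the motif in capitals, written 5′ to 3′ on the strand of the gene. The first Dnmt1 match is the reverse-strand form of TTTCGCGC, and the second lies after the start site.
Dnmt1, chr9:20952824-20952853, minus strand: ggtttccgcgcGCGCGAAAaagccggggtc
Dnmt1, chr9:20952574-20952603, minus strand: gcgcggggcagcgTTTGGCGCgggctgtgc
Uhrf1, chr17:56304117-56304146, plus strand: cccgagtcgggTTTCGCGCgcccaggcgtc
Hells, chr19:38930917-38930946, plus strand: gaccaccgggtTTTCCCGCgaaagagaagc

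CpG content also differed among the members. The window of Tet2 held 57 CpG sites, more than 99.8% of all windows have, against a median of 7 over all 32851 windows. The richest window of the other members held 47 CpG sites in Dnmt3a, 34 in Hells, 33 in Dnmt1, 33 in Uhrf1, 30 in Dnmt3b, 22 in Tet3 and 17 in Tet1. The 3 windows of Dnmt3l held 6, 4 and 3. The stretches of 250 bases before the start are shown for these 3 genes, with each CpG in capitals, because Tet2 had the highest fold change of the members and Dnmt3l the lowest level. Dnmt3b, which has a single window, is shown beside its inactive relative Dnmt3l.
Tet2, chr3:133544391-133544640, minus strand: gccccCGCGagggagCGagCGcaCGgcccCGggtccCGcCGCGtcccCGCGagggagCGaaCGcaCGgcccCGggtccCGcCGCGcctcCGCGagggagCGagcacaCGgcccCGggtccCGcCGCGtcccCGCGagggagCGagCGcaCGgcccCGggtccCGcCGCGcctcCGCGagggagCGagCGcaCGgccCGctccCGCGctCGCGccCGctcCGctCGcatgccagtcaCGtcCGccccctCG
Dnmt3b, chr2:153649199-153649448, plus strand: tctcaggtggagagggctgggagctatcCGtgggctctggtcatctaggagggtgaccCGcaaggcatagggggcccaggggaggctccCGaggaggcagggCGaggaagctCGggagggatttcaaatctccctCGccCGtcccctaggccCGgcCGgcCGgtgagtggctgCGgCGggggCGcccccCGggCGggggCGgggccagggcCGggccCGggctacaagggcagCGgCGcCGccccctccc
Dnmt3l, chr10:78049592-78049841, plus strand: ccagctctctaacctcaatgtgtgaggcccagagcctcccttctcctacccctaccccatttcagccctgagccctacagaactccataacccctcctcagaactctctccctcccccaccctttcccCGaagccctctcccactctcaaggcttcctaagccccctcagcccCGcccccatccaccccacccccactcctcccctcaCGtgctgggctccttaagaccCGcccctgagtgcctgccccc

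Each library held 24952853 to 30461689 counts in genes. The labels were checked on the targeted genes: H3f3a fell from 349 ± 15.4 to 67.7 ± 2.91 CPM (counts scaled to the TMM-adjusted library size, mean ± SD, n = 3) and H3f3b from 691 ± 31.5 to 455 ± 56.8 CPM, with edgeR adjusted p-values of 1.5e-06 and 0.0257. H3f3a fell by 80.6% and H3f3b fell by 34.2%, so most H3f3b RNA remained, and counts over whole genes do not show which part of a gene the remaining reads come from. Alignments outside genes made up 9.79%, 10.7% and 13.1% in controls 1 to 3 and 18.3%, 10.6% and 18.0% in knockouts 1 to 3. Markers of the tissues of a whole embryo were present, with all 8 neural progenitor, 8 neuron, 8 somite and muscle, 8 heart muscle and 10 erythroid markers above the filter on low counts. Of the 8 neuron markers, 8 had folds below 0 (median -0.36 on the log2 scale), and 1, Nhlh1, was called lower. An unadjusted edgeR p under 0.05 was found for 7 of these 8 and for 19.2% of all genes. Of the 8 heart muscle markers, 6 had folds below 0 with a median of -0.05, and 1, Nppa, was called higher. Of 11 macrophage markers, 11 were lower, and their summed level was 62.1 to 74.0 CPM in controls and 1.78 to 2.70 CPM in knockouts. Summed yolk sac endoderm and liver bud markers were at 195 to 314 CPM and 104 to 222 CPM, with Ttr lower. Of 10 trophoblast markers 2 passed the filter, and Tpbpa and Prl2c2 had 0 counts in every library. The part of these shifts in cell make-up in the values given here was not tested, and in whole embryos fewer cells of a type cannot be told apart from less RNA per cell.

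None of the 9 genes was called as changed between control and knockout embryos. Of the 8 that passed the filter, 0 had an edgeR adjusted p under 0.05, where 1.51% of the 15075 genes tested were called, and DESeq2 and limma-voom called 0 as well. By direction, 0.551% of all genes were called higher and 0.955% lower. Tet2 and Dnmt1 had an unadjusted edgeR p under 0.05, 2 of 8, and 19.2% of all genes did. This count was 0 without control 1 and 0 with the share of alignments outside genes as a covariate, and 0 to 3 over the alternatives run. The 8 log2 fold changes ran from -0.02 to 0.38 with a median of 0.07, beside a median of -0.0010 over all genes, and 5 were above 0. The 95% intervals of the 8 together covered -0.28 to 0.66, so none reached a log2 fold change of 1 in either direction. All 9 genes together took 0.151% to 0.163% of gene counts in the controls and 0.163% to 0.181% in the knockouts. These totals are not TMM-adjusted. They include the ribosomal RNA gene Rn45s, at 3.98% to 8.05% of gene counts in the controls and 2.06% to 4.24% in the knockouts. In TMM-scaled CPM the 9 genes summed to 1559 to 1603 in the controls and 1669 to 1731 in the knockouts. These sums were not tested. Dnmt1 and Uhrf1 weighed most in them, with control means of 408 and 367 CPM and knockout means of 461 and 398 CPM. The means of Hells, Dnmt3b and Tet1 were not higher in the knockouts.

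**Figure D1:**
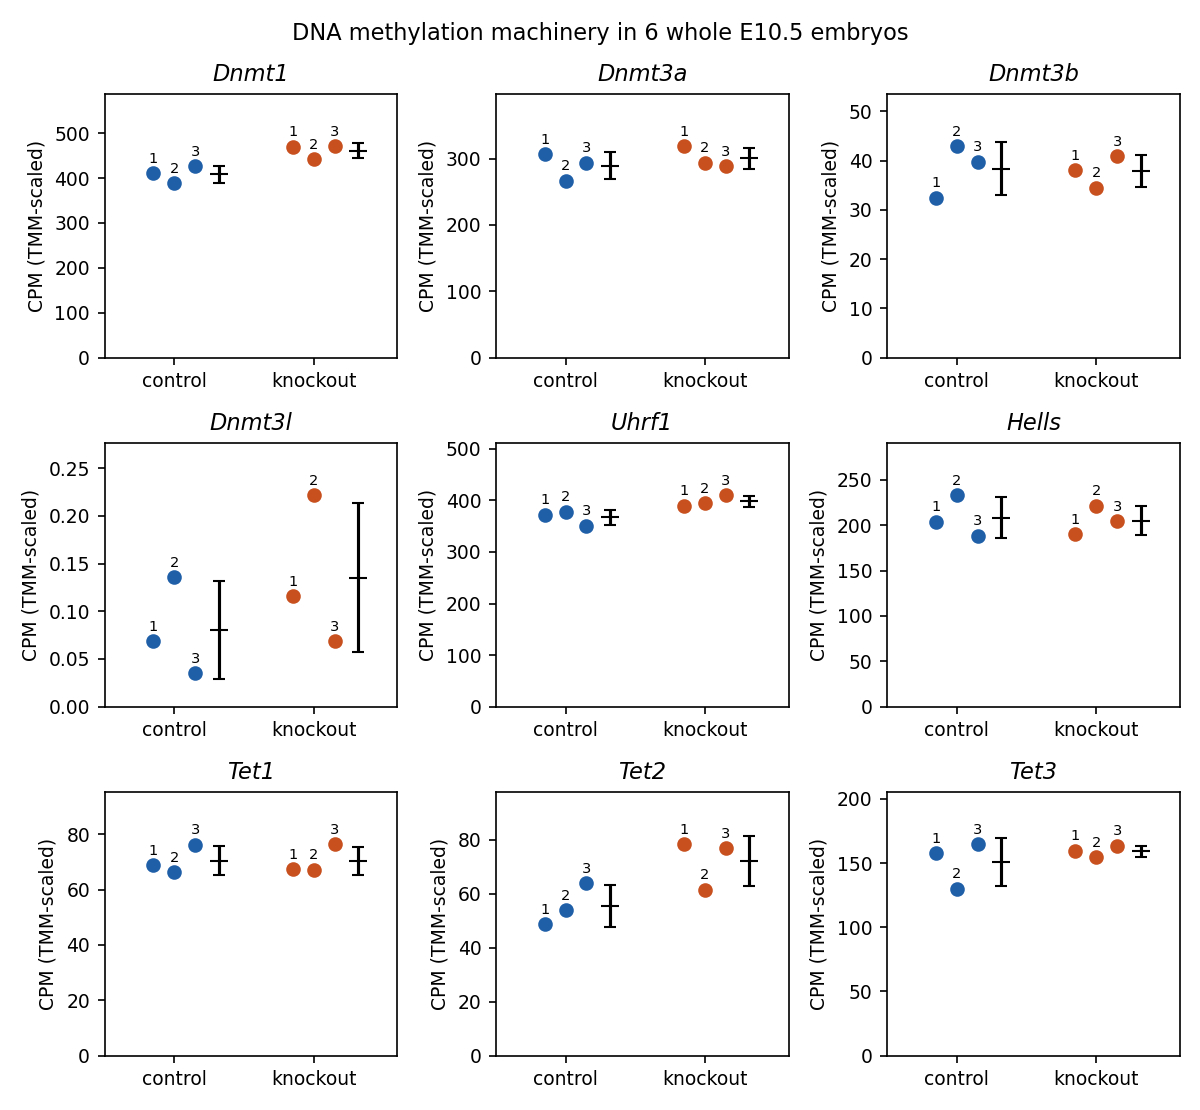
Level of each of the 9 genes in CPM (vertical axes from 0, a scale of its own in each panel) in 3 control (blue) and 3 knockout (orange) embryos, numbered by replicate, with mean and SD as black bars. The groups are apart for Dnmt1 and Uhrf1, with the knockouts higher, and overlap for the other genes.

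Control libraries gave 411, 388 and 426 CPM for Dnmt1, and knockout libraries 470, 442 and 471 CPM. Every knockout lay above every control, and the gap between the groups was 442 against 426 CPM. The means were 408 ± 19.1 and 461 ± 16.7 CPM (SD, n = 3), and the log2 fold change was 0.17 ± 0.08 (SE; edgeR adjusted p = 0.253). Uhrf1, its recruiter, was at 372, 378 and 351 CPM against 390, 394 and 410 CPM. Here too the knockouts were all above the controls, with means of 367 ± 14.4 and 398 ± 10.4 CPM and 0.12 ± 0.07 on the log2 scale (edgeR adjusted p = 0.397). These were the 2 of 8 members whose groups did not overlap, where 24.1% of all genes tested had such groups, 11.8% with the knockouts higher and 12.3% with them lower. Dnmt1 and Uhrf1 thus read 12.8% and 8.42% higher, and neither difference passed the test across all genes. With the share of alignments outside genes as a covariate, the log2 fold change of Dnmt1 was 0.11 (edgeR adjusted p = 0.429). That of Uhrf1 was then 0.13 (edgeR adjusted p = 0.397).

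For Hells the control values of 204, 233 and 188 CPM enclosed the knockout values of 190, 221 and 204 CPM. Its log2 fold change was -0.02 ± 0.10 (edgeR adjusted p = 0.921), with a 95% interval of -0.24 to 0.19. Control 2 had the highest Hells level of the 6 embryos, and it also had the highest median over the S phase list, 0.154 above the control mean on the log2 scale. The S phase list as a whole had a median log2 fold change of -0.08 over 20 tested genes, none called. Its 3 smallest p-values belonged to E2f1 at 0.23, Tyms at -0.16 and Rrm1 at -0.19, and Rrm1 and Tyms supply deoxynucleotides.

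The de novo enzymes Dnmt3a and Dnmt3b had log2 fold changes near 0. Dnmt3a gave 306, 267 and 294 CPM in control embryos against 318, 294 and 289 CPM, with knockouts 2 and 3 inside the control range. Its log2 fold change was 0.06 ± 0.08 (SE), with a 95% interval of -0.13 to 0.24 and an edgeR adjusted p of 0.729. Dnmt3b was at 32.4, 42.9 and 39.8 CPM against 38.1, 34.5 and 40.9 CPM. All 3 knockouts lay within the control range, at a log2 fold change of -0.02 ± 0.12 and an adjusted p of 0.946 by edgeR. The 95% interval of Dnmt3b was -0.28 to 0.24. Dnmt3l, with 2, 4 and 1 control counts against 3, 6 and 2 knockout counts, did not pass the filter and was not tested. Differences in Dnmt3l were therefore not detectable at this depth, and its highest library held 6 counts among 27783483. Of 12 markers of primordial germ cells and pluripotency, 6 were tested and none was called by edgeR, with 6 folds above 0 and a median log2 fold change of 0.34. The 12 summed to 45.5 to 56.3 CPM in controls against 56.6 to 65.1 CPM. Kit, at 824 to 1242 counts per library, was the most abundant. Among the markers too low to test, Dppa3 had 5, 2 and 3 counts against 0 in each knockout. Pou5f1 had 6, 5 and 4 counts against 1, 0 and 0, and Dppa5a 5, 2 and 8 against 2, 1 and 2. Prdm14, Utf1 and Zfp42, also untested, had higher means in the knockouts, at 0 to 7 counts per library.

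Among the TET genes, Tet1 and Tet3 had log2 fold changes near 0 and Tet2 had the largest fold of all members. Tet1 gave 68.8, 66.3 and 76.2 CPM in control embryos against 67.4, 67.2 and 76.3 CPM, and its log2 fold change was -0.0022 ± 0.09 (SE; edgeR adjusted p = 0.992). Tet3 was at 158, 130 and 165 CPM against 160, 154 and 163 CPM, at 0.08 ± 0.09 and an adjusted p of 0.671. For both genes the groups overlapped, and all 3 Tet3 knockouts lay within the control range. For Tet2 the control libraries read 48.7, 53.9 and 63.9 CPM, and the knockout libraries 78.3, 61.4 and 76.8 CPM. Knockouts 1 and 3 stood above every control, while knockout 2 lay below control 3. The means were 55.5 ± 7.76 and 72.2 ± 9.35 CPM, a 1.30-fold difference, or 0.38 ± 0.12 (SE) on the log2 scale with a 95% interval of 0.10 to 0.66. The edgeR adjusted p of Tet2 was 0.158, from an unadjusted p of 0.0136.

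**Figure D2:**
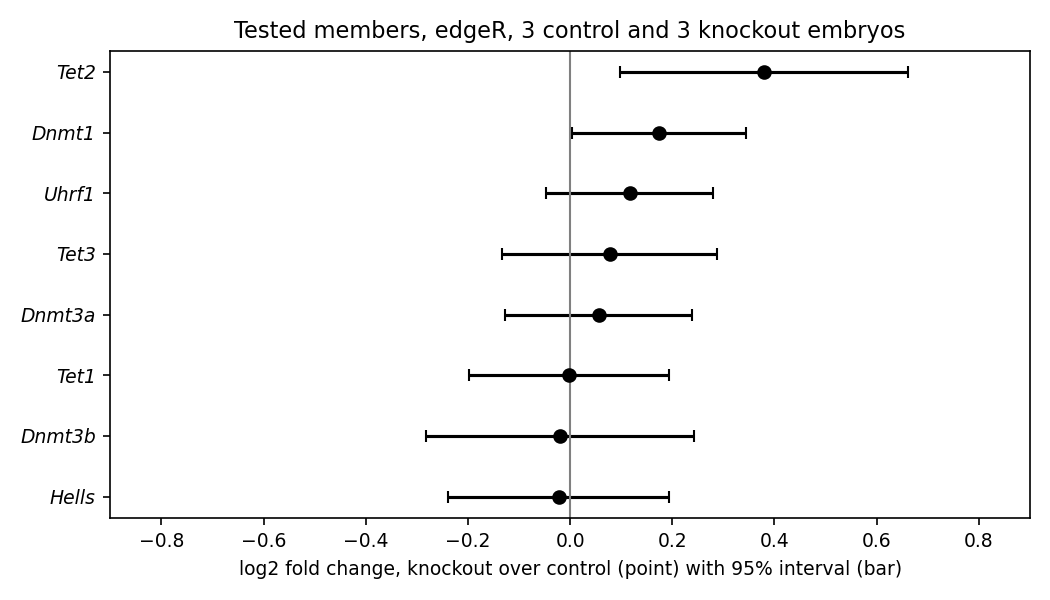
The log2 fold change of knockout over control from edgeR for the 8 tested genes (points, horizontal axis) with its 95% interval (bars). The points run from -0.02 to 0.38, and the unadjusted intervals of Tet2 and Dnmt1 lie above 0.

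The Tet2 level was highest in the libraries with the largest shares of alignments outside genes. Knockouts 1 and 3, with 18.3% and 18.0% outside genes, had the highest Tet2 levels, and control 1, with 9.79%, the lowest. With that share as a covariate the log2 fold change of Tet2 was 0.14 (edgeR adjusted p = 0.419). Knockout 2, at 10.6%, was the only knockout inside the control span of 9.79% to 13.1%, so the group and this share are partly confounded, and the part of the share in the Tet2 level was not tested further. Without knockout 2 the fold was 0.48 and Tet2 was called (edgeR adjusted p = 0.0182, from 1663 called genes in all), and no other left-out library brought a call of any member. The genes whose profile over the 6 libraries was most like that of Tet2 were Slitrk2, Dgat1 and Kifc5b, at root mean square differences of 0.0404, 0.0422 and 0.0433 in centred log2 CPM, among 12640 genes with at least 2 CPM.

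**Figure D3:**
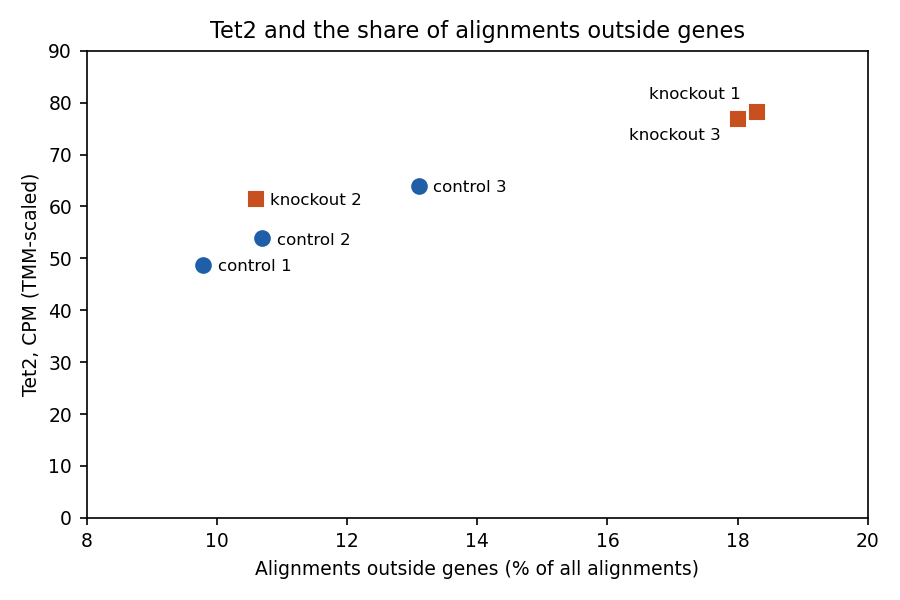
Tet2 level in CPM (vertical axis) against the share of alignments outside genes (horizontal axis), one point per embryo, controls as blue circles and knockouts as orange squares. Knockouts 1 and 3 are highest on both axes, and knockout 2 at 10.6% lies beside the controls.

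Ratios between members within a library do not depend on scaling, so 7 of them, chosen after the values had been seen, were put to an exact permutation test (two-sided) over the 6 embryos. The ratio of Tet2 to Tet1 counts went from 0.707, 0.813 and 0.839 in control embryos to 1.16, 0.914 and 1.01 in knockout embryos. It was higher in every knockout (exact p = 0.1, the smallest that 3 against 3 allows; 0.525 adjusted over the 7). Tet2 over Tet3 overlapped between groups, at 0.308 to 0.415 and 0.398 to 0.491 (exact p = 0.2). Dnmt1 over Uhrf1 was 1.03 to 1.21 in the controls and 1.12 to 1.21 in the knockouts, an exact p of 0.5. The other 4 ratios, of Tet1 to Tet3, Dnmt1 and Uhrf1 to Hells, and Dnmt3a to Dnmt3b, overlapped as well, with exact p-values of 0.3 to 0.7.

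Per length of exon the members differed widely in level, and the group means stood in the same order in controls and knockouts. Levels are in CPM per kb of all annotated exons, averaged over 6 embryos, with the range over embryos. Uhrf1 was highest at 89.8 (82.3 to 96.2), followed by Dnmt1 at 58.9 (52.6 to 63.8), Hells at 28.7 (26.1 to 32.3) and Dnmt3a at 17.7 (16.0 to 19.1). The ranges of these 4 neighbours did not overlap. Tet3 at 9.28 (7.78 to 9.86) and Dnmt3b at 7.46 (6.36 to 8.41) overlapped, as did Tet1 at 4.55 (4.29 to 4.94) and Tet2 at 3.78 (2.88 to 4.64). Dnmt3l came last at 0.0360 (0.0118 to 0.0742). The 3 genes with an E2F-type motif in a start window were the 3 highest per length. That motif was chosen after the sequences had been seen, and a link between motif and level was not tested. With the longest protein-coding transcript as the length, Tet2 at 6.96 ranked above Tet1 at 4.90, and the other 7 genes kept their ranks. Hells at 35.2 and Dnmt3a at 30.4 then stood closer together. In CPM not divided by length, Dnmt3a lay above Hells, at control means of 289 and 208 CPM.

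**Figure D4:**
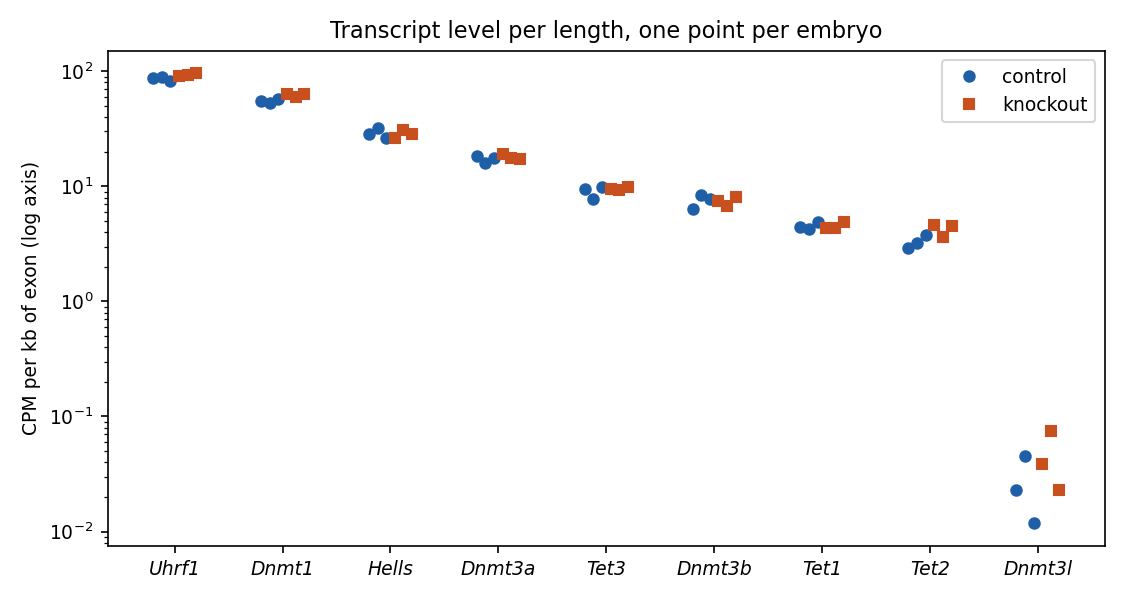
Level of each gene in CPM per kb of exon (vertical log axis), one point per embryo, controls as blue circles and knockouts as orange squares, ordered by mean. Uhrf1 lies near 89.8 and Dnmt3l near 0.0360, and the spread between embryos is small beside the steps between most genes.

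Among 52 partner genes in 5 lists, 49 were tested, 1 was called higher and 1 lower by edgeR, where 1.51% of all genes tested were called. The median log2 fold change of the partner genes was 0.06. An unadjusted edgeR p under 0.05 was found for 7 of the 49 and for 19.2% of all genes. Zbtb4, a zinc finger protein that binds methylated CpG, rose from 6.24, 6.60 and 7.46 CPM to 12.9, 12.2 and 14.0 CPM. The groups were far apart, at 6.77 ± 0.624 and 13.1 ± 0.911 CPM (SD, n = 3), and the log2 fold change was 0.95 ± 0.13 (SE; edgeR adjusted p = 0.00779). Its call was lost without control 1 (0.0591) or control 2 (0.0606). Idh1, the cytosolic isocitrate dehydrogenase whose product 2-oxoglutarate is the co-substrate of TET enzymes, fell from 221, 222 and 205 to 161, 153 and 144 CPM. Its log2 fold change was -0.50 ± 0.07 (edgeR adjusted p = 0.0121), a call lost without control 1 (0.0955), control 2 (0.0663) or knockout 3 (0.0793).

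The other reader genes gave no call, with Zbtb33 at -0.25 and Mbd3 at -0.14. In the demethylation and base excision list, 15 genes were tested and the median was 0.09. Its Ogt, which encodes the sugar transferase that partners TET proteins, was at 252, 273 and 313 against 389, 320 and 419 CPM (log2 fold change 0.43, edgeR adjusted p = 0.114), with all knockouts higher. Neil2, a glycosylase of base excision, was at 0.86 ± 0.190 and 2.05 ± 0.575 CPM (edgeR adjusted p = 0.080). None of the 9 maintenance partners was called: Uhrf2 was at 0.24, Hdac2 at -0.19 and the replication clamp Pcna at -0.21. On the list named recruiters of de novo methylation, none of the 7 tested genes was called either, with Trim28 at -0.18, Setdb1 at 0.15 and Zfp57 at 0.44. That name is a heading, and a role in de novo methylation is not claimed for each of its genes. Of the 10 tested genes that make or recycle the methyl donor, none was called, and Mtrr, Shmt2 and Bhmt were at 0.35, 0.30 and -0.91.

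**Figure D5:**
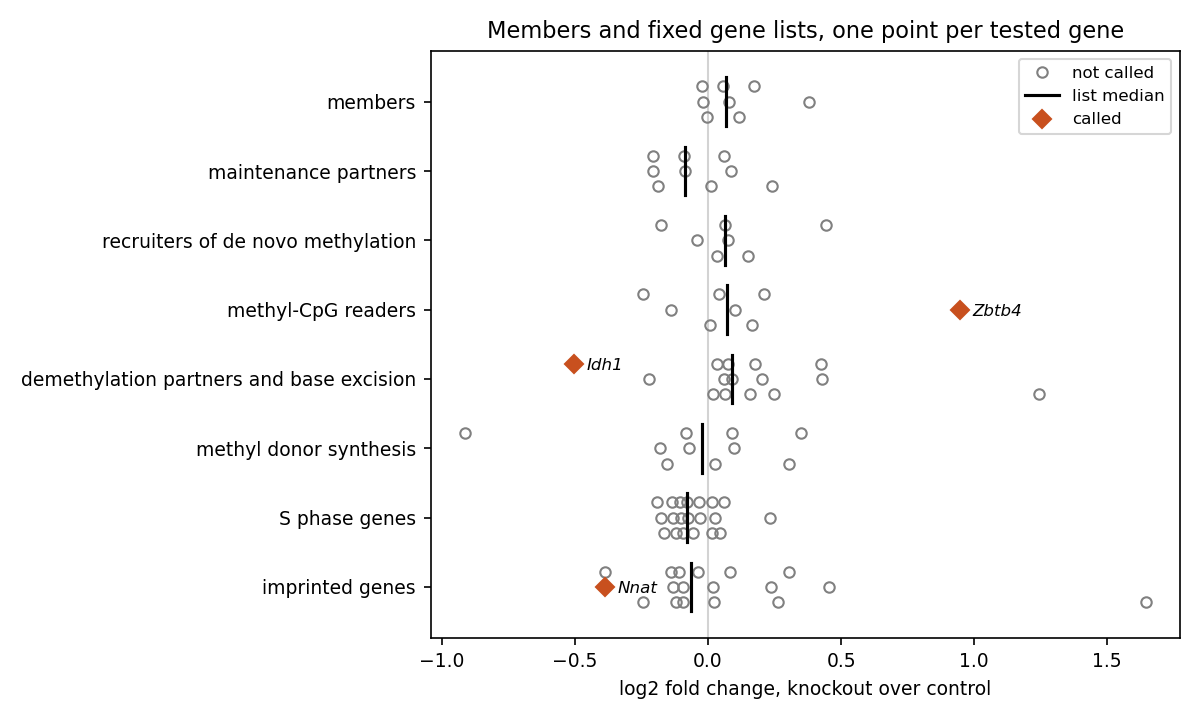
The log2 fold change of knockout over control (horizontal axis) for each tested gene of the members and of 7 fixed lists (rows), with list medians as black bars and called genes as orange diamonds. The members hold no called gene, and Zbtb4, Idh1 and Nnat are the called genes shown.

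Sequences that DNA methylation keeps silent, and imprinted genes, whose expression by parental allele depends on it, were read as a further view of the same libraries. Counts per gene do not tell the silent allele of an imprinted gene from the expressed one. Of 18 germline genes whose promoters are methylated in somatic cells, 7 passed the filter and none was called. Sycp3, a protein of the meiotic chromosome axis, gave 6, 13 and 17 control counts against 25, 74 and 47 knockout counts. All knockouts were higher, at 0.42 ± 0.199 and 1.77 ± 0.895 CPM (SD, n = 3), or 2.08 ± 0.47 (SE) on the log2 scale (edgeR adjusted p = 0.0733). Tdrd1 was at 0.37 and Mov10l1 at -0.65, while Dazl, at 3 to 7 counts per library, was not tested. Of 18 imprinted genes 1 was called, where 1.51% of all genes tested were. It was Nnat, which fell from 565, 528 and 521 CPM to 407, 433 and 394 CPM (log2 fold change -0.39, edgeR adjusted p = 0.0493). Leaving out any 1 library other than knockout 2 ended this call (adjusted p of 0.0982 to 0.297), as did library totals (0.0565), a filter at 1 CPM (0.0598) and priors that were not robust (0.0518). Igf2r was at 355 ± 31.3 and 487 ± 35.5 CPM, with an edgeR adjusted p of 0.0504, and Peg10 at 759 ± 19.4 and 910 ± 17.9 CPM. Meg3 had the largest fold of the list, at 85.7, 127 and 203 CPM in controls against 526, 195 and 577 CPM. Its groups overlapped (log2 fold change 1.64, edgeR adjusted p = 0.176). Of the 18 folds, 8 were above 0 and 10 below, with a median of -0.07. An unadjusted edgeR p under 0.05 was found for 5 of the 18 and for 19.2% of all genes.

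IAP elements are retroviral repeats that need Dnmt1 for their silencing. Of 16 IAP names among the repeats, 14 were tested and 0 were called, as were 0% of the 853 repeat names tested, while 6 had an unadjusted edgeR p under 0.05 (12.4% of all repeat names did). Summed over names, IAP gave 165, 200 and 224 CPM in control embryos against 249, 174 and 223 CPM, and the groups overlapped. The median log2 fold change was 0.61 for IAP names and 0.48 over all repeat names. Folds above 0 were found for 12 of the 14 IAP names and for 778 of the 853 repeat names. The most abundant IAP names lay below that median. IAPEz-int was at -0.04 (84.4 and 82.4 CPM in controls and knockouts), IAPEY3-int at 0.28 (54.7 and 66.2 CPM) and IAPLTR1_Mm at -0.29 (30.8 and 25.2 CPM). Without knockout 2, 8 IAP names were called, and so were 548 repeat names in all. The IAP names with an unadjusted edgeR p under 0.05 numbered 0 without control 1, 0 without control 2, 1 without knockout 1 and 1 without knockout 3. With scaling on the repeat counts themselves the medians were 0.17 and 0.02. Knockouts 1 and 3 also had the largest shares of alignments outside genes, and the part of that share in the repeat values was not tested.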

How the data were processed

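Per the labels' protocols, polyA RNA from 6 whole embryos went into KAPA stranded libraries. The authors deposited raw counts per gene symbol and per repeat name. Tools named per the submitters' processing notes are HTSeq, Bowtie2, TopHat2 and Trimmomatic, with mm9 as the build. The sources used here give neither the annotation nor the strand setting, so reads from a member and an overlapping antisense gene cannot be told apart (Dnmt3a, Dnmt3l and Tet2 share 0.799%, 2.24% and 0.255% of their exon bases with another gene in GENCODE M21). Summary rows naming no gene stayed out of library sizes: 9.79% to 18.3% of alignments lay outside genes, 18.2% to 22.6% were not unique and 0.531% to 0.724% ambiguous.

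All genes were fitted with edgeR 4.0.16 in R 4.3.3 (quasi-likelihood F test, robust priors, TMM, filterByExpr at 10 counts and a total of 15, group as the only term), with Benjamini-Hochberg adjustment over the 15075 genes kept and calls at 0.05. Standard errors were obtained by dividing the absolute log2 fold change by the root of F, and 95% intervals use the degrees of freedom of that test. Repeat names were fitted likewise with the gene scaling. The code was tested on simulated data. Exon lengths come from GENCODE M21 and start windows from RefSeq, both GRCm38 and matched by symbol, so no mm9 coordinates are given. DESeq2 1.42.0 and limma 3.58.1 (voom) were alternatives, beside other scalings and filters, a replicate block, a covariate and each library left out. The labels do not say whether embryos were littermates or pooled, and p-values measure the spread between these samples. In edgeR that spread is moderated over all genes, so the tests of the members had 9.26 degrees of freedom against 4 residual ones. Apart from index sequences, the codes attached to controls and knockouts differ, and their meaning is not given, so any batch they mark and the group cannot be told apart. Knockouts 2 and 3 share one of these codes, so it is not known whether they are as independent as the other embryos, and n = 3 counts them as separate.

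The members, lists, tests and alternatives were chosen with earlier results of these data known. Text names all 9 members, H3f3a, H3f3b and Trp53, the 3 genes of smallest p in each partner, S phase, germline and imprinted list, any called gene of those lists, and the 3 nearest profiles to the member of smallest p. Other named genes and repeats, that is marker genes, Dazl, Meg3, Rn45s, genes with a motif and IAP names, were chosen after their values were seen. Trp53, null in both groups, gave 2.75 ± 0.490 CPM (control) and 4.52 ± 1.27 CPM (knockout; SD, n = 3).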

Additional observations from a re-analysis of the deposited data

How the results depend on the processing

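Of the 8 tested members over 18 alternatives each, 129 of 144 fold changes kept their direction and stayed uncalled, 14 changed sign and 1, Tet2 without knockout 2, was called. The sign changes all concerned folds near 0. With RLE size factors Tet1 was at 0.0015. With library totals Dnmt3b was at 0.0391, Hells at 0.0348 and Tet1 at 0.0544. With the share of alignments outside genes as covariate Hells was at 0.0941. Leaving out 1 library at a time gave -0.128 to 0.0682 for Dnmt3b, -0.0853 to 0.0647 for Hells, -0.0635 to 0.0621 for Tet1 and -0.0201 to 0.148 for Tet3. The log2 difference of the Dnmt1 to Uhrf1 ratio then ran from -0.0006 to 0.12 and that of Dnmt3a to Dnmt3b from -0.0722 to 0.23.

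The number of called members was 0 to 1 over left-out libraries and 0 under every other alternative run. It was also 0 in the main fit at an adjusted p under 0.1, a limit not applied to the alternatives. Among these, the adjusted p of Tet2 was 0.0846 with DESeq2. By edgeR it was 0.0717 with the replicate block and 0.0922 with knockouts 2 and 3 summed. Called partner genes numbered 2, but 4 with DESeq2, 4 with the replicate block and 0 to 7 over left-out libraries (0 without control 1 or control 2, 1 without knockout 3, 7 without knockout 2). Called IAP names were 0 to 8 over left-out libraries. Called genes in all were 227, but 769 with DESeq2, 142 with at least 1 CPM in 3 libraries, 748 with the covariate, 449 with knockouts 2 and 3, which share a file code, summed (0 members called), 589 with the replicate block and 60 to 1663 over left-out libraries. The cause of these changes was not tested.

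The labels give no link between same-numbered embryos beyond the number, and the main fit did not pair them. Their deviations from the group means correlated at -0.1, 0.227 and 0.308, and those of other pairs at -0.484 to 0.39. With 3 embryos per group these values cannot settle whether the embryos were paired. The replicate block brought no call of a member, while called genes in all were 589 with it and 227 without. Dnmt3l, at 1 to 6 counts per library, is the member that depth limits.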
